A study of Rattus norvegicus with 12 samples.

Results

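The genes described here run the cell division cycle and the copying of DNA. They were taken from a list of 50 rat genes: a gene was measured where a probe set carried its symbol alone in the platform annotation, and each gene was read on its probe set with the highest mean over 12 arrays. That left 47 of 14217 measured genes. Cdc6, Rrm2 and Tpx2 had no probe set of their own, and Pola1 and Cdk6 lay below the filter on low values (5.69 log2), so 45 of 11777 tested genes entered the counts. The testes came from male Sprague-Dawley rats that had been on a casein diet (AIN-93G) through lactation. From postnatal day 21 to 33 they ate that semi-purified diet made with casein, a milk protein, or with soy protein isolate, which carries isoflavones that bind estrogen receptors. In each diet, 1 group was infused under the skin with 17β-estradiol from an osmotic minipump, at a daily dose of 10 µg per kg, and 1 group was not. Testes were collected on day 34, and each of the 4 groups held 3 arrays: casein, casein-estradiol, soy and soy-estradiol. The labels give no genetic change in any group, do not mention an empty pump in the groups without estradiol, and do not tie arrays to separate or pooled animals, so p-values measure the spread between these samples only.

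A dividing cell loads the Mcm helicase onto its origins of replication in G1, copies its DNA in S phase, and separates the copies in mitosis. D and E cyclins with their kinases drive the step into S phase, where E2F transcription factors, held back by Rb1, switch on replication genes. Cyclin B with Cdk1, the Plk and Aurora kinases and the anaphase-promoting complex run division itself. In the immature testis spermatogonia divide by mitosis and replicate once more as they enter meiosis, spermatocytes then use much of the division machinery for the meiotic divisions without further replication, and Sertoli cells have stopped dividing by the age studied here.

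Values are log2 probe set intensities after quantile normalization, listed for replicates 1, 2 and 3 of each group, and differences are on the log2 scale. Levels of different genes are not compared, since probe sets differ in how brightly they hybridise. A gene was called higher or lower at a limma p-value under 0.05 after Benjamini-Hochberg adjustment over 21729 probe sets. Array medians before normalization lay between 6.72 and 6.79 log2, and arrays of a group correlated at 0.988 to 0.997. Markers of testis cells were well above the filter level: the mean of 13 spermatid markers was 11.82 to 12.96 in all arrays and that of 15 Sertoli cell markers 9.25 to 10.24. Markers of fat and muscle averaged 7.25 in casein-estradiol array 2, against 5.53 to 6.48 in the other arrays.

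On both diets estradiol raised most genes of the replicative helicase, while the cyclins went both ways. Mitotic kinase genes did not move as 1 class: Plk1, Aurka and Aurkb were lowered and Plk4 was raised on both diets. Of 12 fits with 1 array left out, 7 lost the casein call of Aurkb. The call of Plk4 was lost in 2 on casein and 3 on soy. On casein 17 of the 45 genes rose and 10 fell, and of all tested genes 43.9% were called (20.0% higher, 23.9% lower). On soy 18 rose and 13 fell, where 51.5% of all genes were called (24.5% higher, 27.0% lower). The median difference over the 45 genes was 0.07 on each diet, against −0.01 and −0.04 over all tested genes. Differences of the 45 genes ran from −0.55 to 0.61 on casein and from −0.82 to 0.94 on soy. The casein split moved with the scaling of the arrays: it was 12 higher and 13 lower with the deposited values and 8 higher and 13 lower when each array was centred on its median, whereas on soy both gave 18 and 12. Where values under both other scalings are given, the deposited values come first. In a whole testis, fewer cells of a type and less RNA per cell cannot be told apart.

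The comparisons on casein and on soy use different arrays but a common estimate of the spread. Calls on either diet therefore also depend on the arrays of the other. Of the members that rose, 13 did so on both diets, which is 76.5% of those on casein and 72.2% of those on soy. They were Mcm2, Mcm3, Mcm4, Mcm5, Mcm6, Ccna2, Ccnd1, Ccne2, Cdk4, Cdkn1b, Rb1, Plk4 and Mki67. Of those that fell, 8 did so on both diets (80.0% and 61.5%): Ccnb1, Ccnd3, Ccne1, Plk1, Aurka, Aurkb, Mad2l1 and Ube2c. Mad2l1 has probe sets called in opposite directions, and read on its probe set of highest variance it would leave 7 that fell on both diets (77.8% and 58.3%) and 14 that rose (77.8% and 73.7%). On the probe sets read here no member was called in opposite directions on the diets, and over all tested genes the matching shares were 73.4% and 59.9% for rises and 70.2% and 62.2% for falls. In 8 members the call held on both diets under all 22 alternatives tried, 12 of which leave out an array: Mcm2, Ccna2, Ccne2 and Mki67 higher, and Ccnb1, Ccne1, Plk1 and Aurka lower. None of the alternatives reads the dimmer probe set of Ccnb1, which was called higher on soy. Another 8 were called on neither diet: Mcm7, Gmnn, Pcna, Rfc4, Cdc25b, Cdkn1a, E2f1 and Bub1b.

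**Figure D1:**
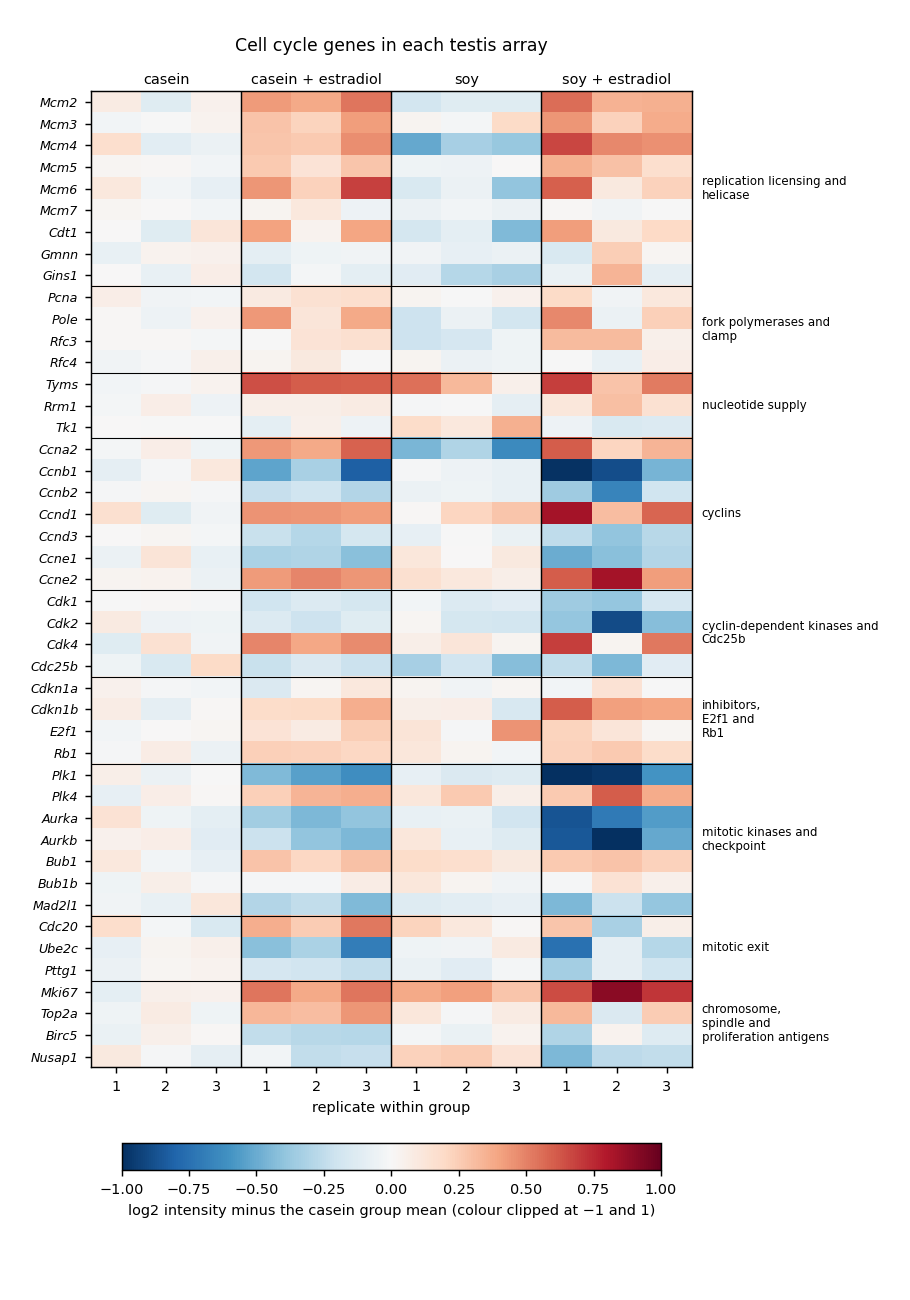
Each row is 1 of 45 tested cell cycle genes, ordered by role, and each column is 1 array; colour gives the log2 intensity minus the mean of the 3 casein arrays, clipped at −1 and 1. In the estradiol columns most rows of the top block (licensing and helicase) are red, while the rows of Ccnb1, Plk1, Aurka and Aurkb are blue.

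**Figure D2:**
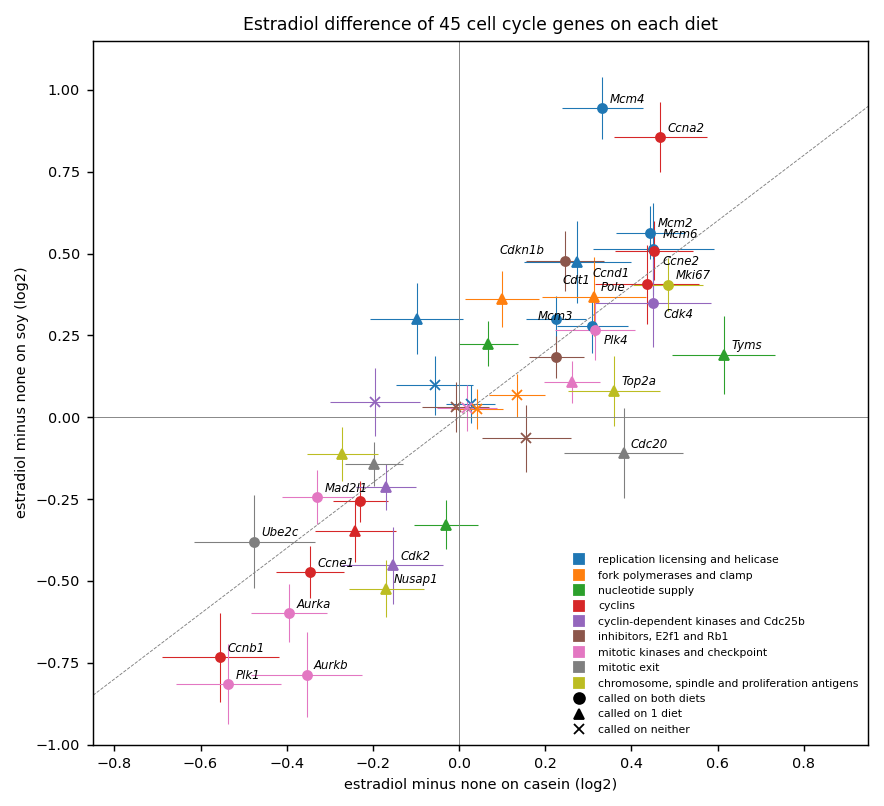
The log2 difference between estradiol and none on casein (x axis) and on soy (y axis) is plotted for 45 genes, coloured by role, with bars of 1 standard error and a dashed line of equality. The 13 genes called higher on both diets lie in the upper right and the 8 called lower on both in the lower left; no gene called on both diets lies in the other quadrants.

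Among the 9 tested genes of replication licensing and the replicative helicase, 5 rose on casein and 7 on soy, and none fell (medians 0.27 and 0.30). Mcm2 to Mcm7 form the ring that unwinds DNA at the fork. Mcm2 read 7.36, 7.15 and 7.32 on casein and 7.70, 7.65 and 7.81 with estradiol. On soy it read 7.09, 7.16 and 7.15, and 7.83, 7.63 and 7.63 with estradiol. All 6 estradiol arrays were above all 6 others. Members given by array for estradiol were picked by being called with large differences, so groups that do not overlap add no support. For Mcm2 the differences were 0.44 ± 0.08 (SE, adjusted p = 0.00123) on casein and 0.56 ± 0.08 (adjusted p = 0.000259) on soy. Mcm4 read 6.67, 6.40 and 6.44 in casein, 6.78, 6.77 and 6.97 in casein-estradiol, 5.99, 6.17 and 6.13 in soy, and 7.17, 6.99 and 6.96 in soy-estradiol. The soy arrays were the lowest of the 12. With estradiol it rose by 0.33 ± 0.09 on casein (adjusted p = 0.0141) and by 0.94 ± 0.09, or 1.92-fold, on soy (adjusted p = 6.26e-05).

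Mcm6 read 8.47, 8.34 and 8.29 in casein, 8.80, 8.60 and 9.05 in casein-estradiol, 8.21, 8.30 and 7.97 in soy, and 8.96, 8.46 and 8.60 in soy-estradiol. Its groups with and without estradiol did not overlap within a diet, and it rose by 0.45 on casein (adjusted p = 0.0219) and 0.51 on soy (adjusted p = 0.00998). Mcm3 rose by 0.31 and 0.28 and Mcm5 by 0.23 and 0.30. Mcm7 differed by 0.03 ± 0.06 (adjusted p = 0.733) and 0.04 ± 0.06 (adjusted p = 0.573), and all its 12 arrays lay between 11.84 and 12.01. Cdt1, which loads the ring, read 6.21, 6.09 and 6.33 in casein, 6.61, 6.24 and 6.60 in casein-estradiol, 6.03, 6.12 and 5.77 in soy, and 6.63, 6.31 and 6.41 in soy-estradiol. It rose on soy by 0.47 (adjusted p = 0.00812), while on casein the groups overlapped and the difference was 0.27 (adjusted p = 0.0952). Gins1, a subunit of the helicase complex, rose on soy by 0.30 and differed by −0.10 on casein (adjusted p = 0.489). Gmnn, which blocks Cdt1 after origins have fired, differed by −0.06 and 0.10 and was not called.

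Several of these calls were lost when 1 array was left out. On casein Mcm6 was lost without casein arrays 2 or 3 or casein-estradiol arrays 1 or 3 (adjusted p = 0.0613, 0.0758, 0.0527 and 0.102), and Mcm5 without the same arrays (adjusted p = 0.0530, 0.0711, 0.0766 and 0.0824). Mcm4 was lost there without casein arrays 2 or 3 or casein-estradiol array 3 (adjusted p = 0.0601, 0.0532 and 0.0696), and Mcm3 without the last of these (adjusted p = 0.0519). On soy Mcm3 was lost without soy arrays 1 or 2 (adjusted p = 0.0511 and 0.0578), Mcm6 without soy array 3 (adjusted p = 0.05005), and Gins1 without soy arrays 2 or 3 or soy-estradiol array 2 (adjusted p = 0.0897, 0.116 and 0.126). Median centring of the arrays also ended the casein calls of Mcm5 and Mcm6 (adjusted p = 0.136 and 0.0546), and the deposited values that of Mcm5 (0.0594) while calling Cdt1 higher (0.0401). Fitting only the 2 groups ended the soy calls of Mcm3 and Gins1 (adjusted p = 0.0540 and 0.0943).

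The promoters of the genes that moved together were searched for letters that cell cycle factors are known to bind. RefSeq promoter windows (GRCr8, 250 bases before to 50 after the start) were matched by symbol for 39 of the 50 genes, 38 of them tested; Mcm4, Ccna2, Ccnd1, Ccne2 and Aurkb were among those without an entry. E2F factors bind variants of TTTGGCGC, TTTCCCGC, TTTGCCGC and TTTCGCGC, and any of these, on either strand, stood in 13 of 38 windows (34.2%). The share was 3.71% over 11062 windows of tested genes and 2.14% over all 33469 windows. By role the 13 were Mcm2, Mcm3, Mcm5, Mcm6, Mcm7, Cdt1, Gmnn, Gins1, Pole, Rfc3, Tyms, Cdk1 and Rb1. Matches stood in 5 of the 9 matched genes that rose on both diets and in 0 of the 6 that fell on both. The 5 were Mcm2, Mcm3, Mcm5, Mcm6 and Rb1. The 6 include Ccnb1 and Mad2l1, which have other probe sets called higher. Mcm7 and Gmnn hold matches too and were not called on either diet. Of the other genes with a match, Cdt1, Gins1, Pole and Rfc3 rose on soy alone, Tyms rose on casein alone, and Cdk1 fell on soy. A match describes letters only. The 140 bases before the start of Mcm2 (chr4:122918095-122918234, minus strand) and Mcm6 (chr13:42404353-42404492, minus strand) are shown 5′ to 3′ because these were the 2 matched genes called on both diets with the largest mean rise. Capitals mark E2F letters, which overlap on both strands in each, and CCAAT boxes, read as ATTGG where they lie on the other strand.
Mcm2: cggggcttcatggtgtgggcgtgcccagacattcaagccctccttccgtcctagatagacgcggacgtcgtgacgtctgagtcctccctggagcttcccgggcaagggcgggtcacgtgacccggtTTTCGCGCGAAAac
Mcm6: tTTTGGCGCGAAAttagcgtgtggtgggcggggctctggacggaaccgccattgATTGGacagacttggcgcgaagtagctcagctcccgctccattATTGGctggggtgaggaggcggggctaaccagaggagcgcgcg

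Of 4 tested genes of the fork, none was called on casein in the fit used here and 2 rose on soy. Pole, the leading strand polymerase, read 7.32 to 7.42 on casein and 7.50 to 7.81 with estradiol, a difference of 0.31 (adjusted p = 0.0538), and rose by 0.37 on soy (adjusted p = 0.0237). On casein Pole was called higher with the replicate block (adjusted p = 0.0443), the deposited values (0.0473), a 50% filter (0.0493) and a fit of only the 2 groups (0.0172). Rfc3, a subunit of the clamp loader, rose by 0.36 on soy (adjusted p = 0.00450) and differed by 0.10 on casein. Pcna, the sliding clamp, lay between 12.43 and 12.66 in all 12 arrays and differed by 0.13 (adjusted p = 0.114) and 0.07 (adjusted p = 0.409). The other clamp loader subunit, Rfc4, differed by 0.04 and 0.02. Pola1, the polymerase that starts each strand, was below the filter, with group means of 5.20 on casein and 5.11 on soy against 5.49 and 5.57 with estradiol. Tested without the filter it differed by 0.29 (adjusted p = 0.0257) and 0.46 (adjusted p = 0.00190). The soy call of Pole was lost without soy arrays 1 or 3 or soy-estradiol arrays 1 or 3 (adjusted p = 0.0732, 0.0681, 0.0981 and 0.0534) and in a fit of only the 2 groups (0.0581).

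Of 3 tested genes that supply nucleotides, 1 rose on casein, and on soy 1 rose and 1 fell. Tyms, which makes thymidylate, read 5.67, 5.69 and 5.74 on casein and 6.34, 6.31 and 6.30 with estradiol. On the probe sets read here Tyms had the largest rise of any member on that diet (0.61 ± 0.12, adjusted p = 0.00181). On soy it read 6.25, 6.02 and 5.75 without and 6.39, 5.99 and 6.22 with estradiol, and these groups overlapped (difference 0.19, adjusted p = 0.198). The casein arrays lay close to the filter level. Rrm1, the large subunit of ribonucleotide reductase, rose on soy by 0.22 (adjusted p = 0.0176), a call lost without soy array 3 (adjusted p = 0.0654) or with only the 2 groups fitted (0.0757), and differed by 0.07 on casein. Tk1, the thymidine salvage kinase, fell on soy by 0.33 (adjusted p = 0.00359) and differed by −0.03 on casein. Its 2 other probe sets differed by −0.13 and −0.18 on soy and were not called.

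The cyclins moved in both directions. All 7 had an unadjusted p under 0.05 on each diet, as did 6188 of all 11777 tested genes on casein and 6878 on soy. After adjustment 3 cyclins were higher and 3 lower on casein, and 3 were higher and 4 lower on soy. Ccna2, the cyclin of S phase and G2, read 6.87, 6.95 and 6.84 in casein, 7.32, 7.26 and 7.47 in casein-estradiol, 6.43, 6.58 and 6.25 in soy, and 7.49, 7.10 and 7.23 in soy-estradiol. It rose by 0.47 ± 0.11 on casein (adjusted p = 0.00476) and by 0.86 ± 0.11 on soy (adjusted p = 0.000138), and the soy arrays were again the lowest. Ccne2, an E cyclin, read 9.74, 9.74 and 9.64 in casein, 10.13, 10.19 and 10.15 in casein-estradiol, 9.87, 9.81 and 9.77 in soy, and 10.31, 10.54 and 10.12 in soy-estradiol. It rose by 0.45 (adjusted p = 0.00213) and 0.51 (adjusted p = 0.000859). The other E cyclin went the opposite way. Ccne1 read 8.20, 8.39 and 8.19 in casein, 7.94, 7.96 and 7.84 in casein-estradiol, 8.37, 8.26 and 8.35 in soy, and 7.76, 7.84 and 7.96 in soy-estradiol. It fell by 0.35 on casein (adjusted p = 0.00430) and by 0.47 on soy (adjusted p = 0.000583).

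Of the D cyclins, which link growth signals to the cycle, Ccnd1 rose and Ccnd3 fell. Ccnd1 read 7.39, 7.12 and 7.20 in casein, 7.68, 7.68 and 7.65 in casein-estradiol, 7.24, 7.45 and 7.51 in soy, and 8.07, 7.54 and 7.81 in soy-estradiol. The differences were 0.44 (adjusted p = 0.0122) and 0.41 (adjusted p = 0.0150). Its call was lost without casein array 2 on casein (adjusted p = 0.0528) and without soy array 1 or soy-estradiol array 1 on soy (adjusted p = 0.0675 and 0.0601). A second Ccnd1 probe set differed by 0.13 and 0.19 and was not called, and a further one differed by 0.15 on casein (adjusted p = 0.407) and rose by 0.74 on soy (adjusted p = 0.00121). Ccnd3 fell by 0.23 and 0.26, and its soy call was lost under both other scalings (adjusted p = 0.0818 and 0.0578).

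The B cyclins, which with Cdk1 drive cells into division, fell or were not called on their brightest probe sets. Ccnb1 read 11.25, 11.32 and 11.44 in casein, 10.81, 11.02 and 10.52 in casein-estradiol, 11.32, 11.29 and 11.27 in soy, and 10.35, 10.45 and 10.87 in soy-estradiol. No estradiol array reached any of the others, and Ccnb1 fell by 0.55 ± 0.14 on casein (adjusted p = 0.00648) and by 0.73 ± 0.14 on soy, a 1.66-fold decrease (adjusted p = 0.00110). Its dimmer probe set went the other way, from 7.38 to 7.59 on soy to 7.80 to 8.11 with estradiol, a rise of 0.40 (adjusted p = 0.0145), with a difference of 0.29 on casein (adjusted p = 0.0685). Ccnb2 fell on soy by 0.35 (adjusted p = 0.00925) and differed by −0.24 on casein (adjusted p = 0.0559), where the arrays with and without estradiol did not overlap. Both other scalings called it lower on casein (adjusted p = 0.00835 and 0.00474), as did a fit of only the 2 groups (0.00583).

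Among the kinases that cyclins activate, Cdk4, the partner of D cyclins, read 9.78, 10.05 and 9.86 in casein, 10.39, 10.29 and 10.37 in casein-estradiol, 9.95, 10.02 and 9.93 in soy, and 10.59, 9.92 and 10.42 in soy-estradiol. It rose by 0.45 on casein (adjusted p = 0.0185). On soy the groups overlapped and the rise of 0.35 was just past the threshold (adjusted p = 0.0483). That call was lost without any of the 12 arrays except soy-estradiol array 2 (adjusted p between 0.0531 and 0.188), with the replicate block (0.0625), with no filter (0.0553) and in a fit of only the 2 groups (0.113). The casein call was lost without casein arrays 1 or 3 or casein-estradiol arrays 1 or 3 (adjusted p = 0.0681, 0.0579, 0.0566 and 0.0538), with the deposited values (0.0519) and with arrays centred on medians (0.0828). Cdk2, which works with E and A cyclins, read 8.77, 8.63 and 8.64 in casein, 8.54, 8.47 and 8.56 in casein-estradiol, 8.69, 8.50 and 8.50 in soy, and 8.29, 7.79 and 8.26 in soy-estradiol. It fell by 0.45 on soy (adjusted p = 0.00755) and differed by −0.15 on casein, and its second probe set fell on both diets, by 0.37 and 0.30. The mitotic kinase Cdk1 fell on soy by 0.21 (adjusted p = 0.0239) and differed by −0.17 on casein (adjusted p = 0.0683), where both other scalings (0.00742 and 0.00394) and a fit of only the 2 groups (0.0277) called it lower. Without soy arrays 1 or 3 or soy-estradiol arrays 1 or 2 its soy call was lost (adjusted p = 0.0955, 0.0520, 0.0607 and 0.0516), and also in the fit of 2 groups (0.102). Cdc25b, the phosphatase that activates it, differed by −0.20 and 0.05. Cdk6 was at the low end of the range, at 5.36 to 5.70 in all arrays, and was not tested.

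Of the brakes on the cycle, Cdkn1b (p27), an inhibitor of cyclin-dependent kinases, read 9.15, 8.98 and 9.08 in casein, 9.25, 9.26 and 9.44 in casein-estradiol, 9.13, 9.14 and 8.91 in soy, and 9.67, 9.48 and 9.46 in soy-estradiol. It rose by 0.48 on soy (adjusted p = 0.00127). On casein it rose by 0.24 (adjusted p = 0.0457), a call lost when any casein or casein-estradiol array or soy arrays 1 or 2 was left out (adjusted p between 0.0511 and 0.177). It was also lost with the replicate block (0.0576), with no filter (0.0532) and under both other scalings (0.163 and 0.291). The dimmer Cdkn1b probe set rose by 1.19 on casein (adjusted p = 5.63e-06) and by 0.30 on soy (adjusted p = 0.00931). Cdkn1a (p21) differed by −0.01 and 0.03, with all arrays between 8.27 and 8.55. Rb1, which restrains E2F, rose by 0.23 (adjusted p = 0.0143) and 0.18 (adjusted p = 0.0312). Its call was lost on casein without casein array 3 (adjusted p = 0.0613), and on soy without soy arrays 2 or 3 or soy-estradiol arrays 1 or 2 (adjusted p = 0.0711, 0.110, 0.0614 and 0.0582). Median centring ended the casein call (0.0650) and a fit of only the 2 groups the soy call (0.106). E2f1 differed by 0.16 and −0.06 and was not called.

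Of 7 kinases and checkpoint genes of mitosis, 4 fell on each diet, while 2 rose on casein and 1 on soy. The medians of −0.33 and −0.24 are the values of Mad2l1. With that gene read on its probe set of highest variance 3 fell on each diet, 3 rose on casein and 2 on soy, and the medians were 0.02 and 0.03. Plk1, a kinase needed for spindle assembly and exit from mitosis, read 10.31, 10.19 and 10.25 in casein, 9.81, 9.70 and 9.63 in casein-estradiol, 10.17, 10.11 and 10.12 in soy, and 9.02, 9.27 and 9.65 in soy-estradiol. It fell by 0.54 ± 0.12, a 1.45-fold decrease, on casein (adjusted p = 0.00433) and by 0.82 ± 0.12, a 1.76-fold decrease, on soy (adjusted p = 0.000320). The groups were apart on both diets. Aurka, a centrosome and spindle kinase, read 11.19, 11.01 and 10.95 in casein, 10.71, 10.60 and 10.66 in casein-estradiol, 10.98, 10.98 and 10.86 in soy, and 10.19, 10.34 and 10.49 in soy-estradiol. It fell by 0.39 on casein (adjusted p = 0.00391) and by 0.60 on soy (adjusted p = 0.000295).

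Aurkb, the Aurora kinase of the chromosomal passenger complex, read 9.26, 9.29 and 9.11 in casein, 9.01, 8.83 and 8.77 in casein-estradiol, 9.33, 9.15 and 9.09 in soy, and 8.38, 8.12 and 8.71 in soy-estradiol. The fall was 0.79 ± 0.13 on soy (adjusted p = 0.000538) and 0.35 ± 0.13 on casein (adjusted p = 0.0432). The casein call was lost without casein arrays 1, 2 or 3, casein-estradiol arrays 2 or 3, or soy arrays 2 or 3 (adjusted p = 0.106, 0.122, 0.0544, 0.0976, 0.137, 0.0566 and 0.0526), and with the replicate block (0.0504). Plk4, the kinase that starts centriole duplication, rose by 0.31 (adjusted p = 0.0167) and 0.27 (adjusted p = 0.0301). Its call was lost on casein without casein array 1 or casein-estradiol array 3 (adjusted p = 0.0622 and 0.0599) and on soy without soy arrays 1 or 3 or soy-estradiol array 2 (adjusted p = 0.0867, 0.112 and 0.0898). With the deposited values and after median centring, the casein call of Plk4 was lost as well (adjusted p = 0.1001 and 0.203), as was its soy call when only the 2 groups were fitted (0.0918). Bub1, a spindle checkpoint kinase, rose on casein by 0.26 (adjusted p = 0.00708), a call lost under the same scalings (0.125 and 0.313), and differed by 0.11 on soy. Its partner Bub1b differed by 0.02 and 0.03.

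Mad2l1, which holds the anaphase-promoting complex inactive, read 7.69, 7.64 and 7.83 in casein, 7.42, 7.47 and 7.27 in casein-estradiol, 7.59, 7.62 and 7.63 in soy, and 7.27, 7.51 and 7.33 in soy-estradiol. This probe set fell by 0.33 (adjusted p = 0.00710) and 0.24 (adjusted p = 0.0262). The soy call was lost without soy arrays 1, 2 or 3 or soy-estradiol arrays 1 or 3 (adjusted p = 0.0527, 0.0574, 0.0702, 0.0929 and 0.0675), under both other scalings (0.117 and 0.0931) and in the fit of only 2 groups (0.0584). The other probe sets of the gene moved in the opposite direction: the dimmest rose by 0.51 on casein (adjusted p = 0.0129) and 0.95 on soy (adjusted p = 0.000322), and the remaining one differed by 0.06 on casein and rose by 0.39 on soy (adjusted p = 0.00242). The direction of Mad2l1 depended on which probe set is read.

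The 140 bases before the start of Plk1 (chr1:186147518-186147657, plus strand) and Ccnb1 (chr2:33655226-33655365, minus strand) are shown because these were the 2 matched genes called on both diets with the largest mean fall. Capitals mark CCAAT boxes, which the factor NF-Y binds in promoters of mitotic genes. CCAAT, on either strand, stood in 24 of the 38 tested members' windows (63.2%), against 37.3% of windows of tested genes. The CHR element TTTGAA, known from genes of G2 and mitosis, stood in 13 of 38 (34.2%), against 11.9%. Plk1 has a CHR match in the bases after its start, which are not printed. Of the 9 matched members that rose on both diets 5 had CCAAT and 3 had TTTGAA, and of the 6 that fell 3 and 2.
Plk1: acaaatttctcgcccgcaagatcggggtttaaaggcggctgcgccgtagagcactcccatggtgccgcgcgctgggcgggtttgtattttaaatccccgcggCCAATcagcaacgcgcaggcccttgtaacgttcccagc
Ccnb1: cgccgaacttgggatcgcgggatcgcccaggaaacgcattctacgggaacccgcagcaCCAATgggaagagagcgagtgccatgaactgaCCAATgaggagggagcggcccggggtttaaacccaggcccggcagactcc

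**Figure D3:**
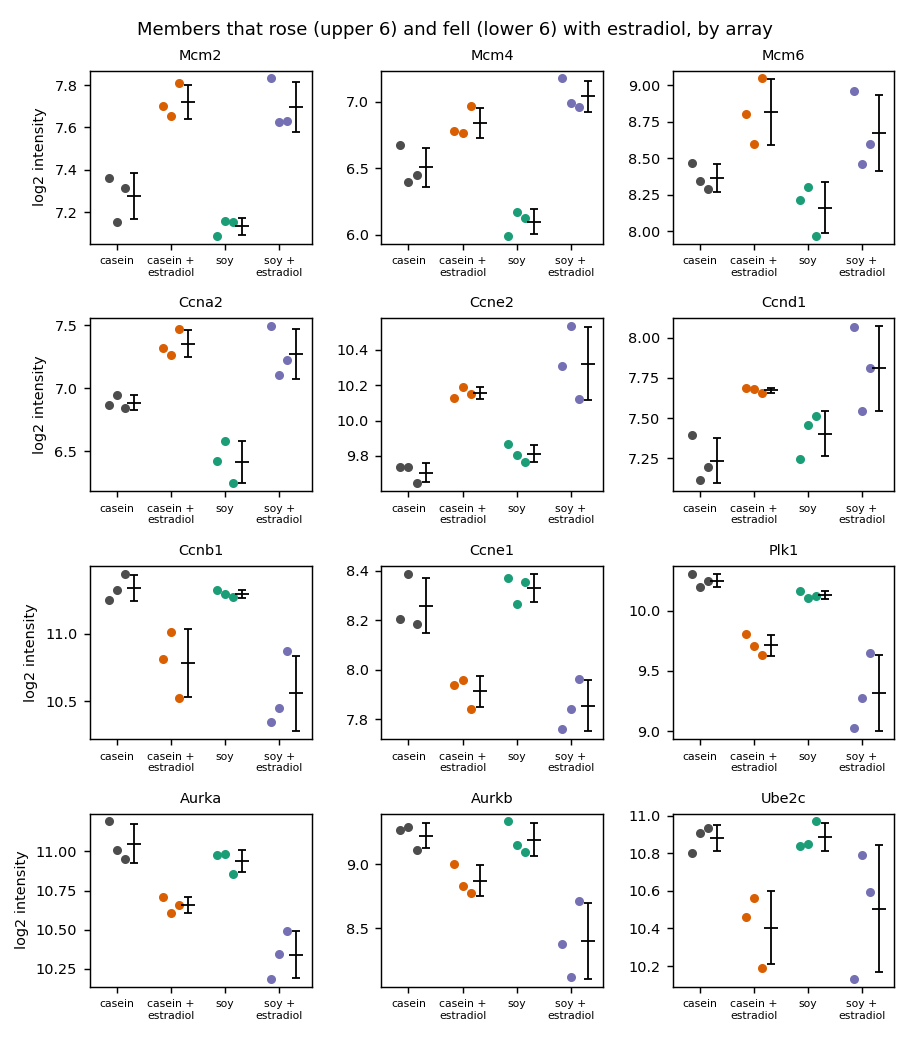
Log2 intensity of 12 members in each of the 12 arrays (points), with group mean and SD (n = 3) drawn beside the points; each panel has its own y axis, which does not start at 0. In the upper 6 panels the estradiol groups sit above the groups without it on the same diet, and in the lower 6 below.

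In the machinery of mitotic exit, Ube2c, the ubiquitin-conjugating enzyme of the anaphase-promoting complex, read 10.80, 10.91 and 10.93 in casein, 10.46, 10.56 and 10.19 in casein-estradiol, 10.84, 10.85 and 10.97 in soy, and 10.13, 10.79 and 10.59 in soy-estradiol. It fell by 0.47 on casein (adjusted p = 0.0173) and by 0.38 on soy (adjusted p = 0.0402). The soy difference was −0.19 without soy-estradiol array 1 (adjusted p = 0.152), and the call was also lost without soy arrays 1, 2 or 3, casein arrays 1, 2 or 3 or casein-estradiol array 1 (adjusted p between 0.0506 and 0.122) and in a fit of only the 2 groups (0.0853). On casein it was lost without casein arrays 2 or 3 or casein-estradiol array 3 (adjusted p = 0.0517, 0.0585 and 0.0799). Cdc20, an activator of the complex, rose on casein by 0.38 (adjusted p = 0.0407) and differed by −0.11 on soy. Its call was lost without casein arrays 2 or 3, casein-estradiol arrays 1 or 3 or any soy array (adjusted p between 0.0507 and 0.149), and under both other scalings (0.131 and 0.1997). Of its 4 other probe sets 1 rose on casein, by 0.35, and none was called on soy. Pttg1 (securin), which the complex destroys, fell on casein by 0.20 (adjusted p = 0.0327) and differed by −0.14 on soy (adjusted p = 0.0941), where both other scalings called it lower (0.0368 and 0.0341). The casein call was lost without casein arrays 2 or 3 or any casein-estradiol array (adjusted p between 0.0604 and 0.106).

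Mki67, the proliferation antigen that coats mitotic chromosomes, read 10.30, 10.45 and 10.44 in casein, 10.93, 10.78 and 10.94 in casein-estradiol, 10.77, 10.81 and 10.67 in soy, and 11.05, 11.30 and 11.11 in soy-estradiol. It rose by 0.49 ± 0.08 on casein (adjusted p = 0.000793) and by 0.40 ± 0.08 on soy (adjusted p = 0.00179), and the lowest level was on casein alone. Top2a, which untangles sister DNA, rose on casein by 0.36 (adjusted p = 0.0173) and differed by 0.08 on soy. Its other probe set gave 0.45 (adjusted p = 0.0359) and −0.06, and the first call was lost without casein arrays 1 or 3 or casein-estradiol array 3 (adjusted p = 0.0532, 0.0592 and 0.0667) and under both other scalings (0.0654 and 0.117). Birc5 (survivin), the partner of Aurkb, read 9.01, 9.12 and 9.08 in casein, 8.82, 8.79 and 8.79 in casein-estradiol, 9.05, 9.00 and 9.10 in soy, and 8.77, 9.10 and 8.94 in soy-estradiol. It fell on casein by 0.27 (adjusted p = 0.0188), and on soy the groups overlapped (−0.11). Leaving out casein arrays 2 or 3 or casein-estradiol array 3 ended the casein call (adjusted p = 0.0697, 0.0557 and 0.0566). Nusap1, a spindle microtubule protein, read 9.84, 9.73 and 9.65 in casein, 9.72, 9.49 and 9.51 in casein-estradiol, 9.97, 9.99 and 9.88 in soy, and 9.29, 9.48 and 9.50 in soy-estradiol. It fell on soy by 0.52 (adjusted p = 0.000571) and differed by −0.17 on casein (adjusted p = 0.135), where both other scalings called it lower (0.0254 and 0.0148).

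Other genes of the pathway, which were listed separately from the members, also moved both ways. Of 91 tested, 31 rose and 16 fell on casein and 27 rose and 25 fell on soy, with medians of 0.12 and 0.03. The shares called were 51.6% and 57.1%, beside the 43.9% and 51.5% of all tested genes. The rises with the smallest p on casein were the D cyclin gene Ccnd2 by 1.29, Hells, a chromatin remodeller, by 1.05, and E2f5, an E2F factor, by 0.55. On soy they were Timeless, which protects replication forks, by 0.88, Stmn1, a microtubule regulator, by 0.49, and Hells by 1.05. The falls with the smallest p were, on casein, the mitotic kinesin gene Kif2c by 1.05, Foxm1, a transcription factor of mitotic genes, by 0.71, and Pola2, a subunit of the priming polymerase, by 0.43. On soy they were Foxm1 by 0.88, Kif2c by 0.91 and Cdkn2c, an inhibitor of Cdk4, by 0.52. The casein split became 23 higher and 23 lower with the deposited values and 18 and 29 after median centring, and the soy split 34 and 23, and 32 and 23.

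Markers of germ cell stages and of Sertoli cells moved in the same arrays. All but 1 of 13 tested spermatid markers fell on each diet, and their mean level was 12.87 to 12.96 in casein, 11.82 to 12.43 in casein-estradiol, 12.88 to 12.96 in soy and 12.05 to 12.54 in soy-estradiol. The lowest levels, 11.82 and 12.05, were in casein-estradiol array 3 and in array 1 of soy-estradiol. Within its group, the first of these arrays held the highest level of 12 of the 17 members that rose on casein and the lowest level of 8 of the 10 that fell. The other held the highest level of 11 of the 18 that rose on soy and the lowest of 7 of the 13 that fell. The matching shares over all called genes are not given here, so these counts are not read as particular to the members. Of 7 pachytene spermatocyte markers 2 fell on casein, while on soy 4 fell and 1 rose (group ranges 11.57 to 11.63, 11.34 to 11.43, 11.59 to 11.62 and 11.14 to 11.35, in the same order). Of 7 early meiotic markers 5 rose on each diet (10.70 to 10.78, 11.09 to 11.14, 10.83 to 10.89 and 11.04 to 11.15). Of 8 spermatogonia markers 3 rose and 2 fell on casein and 3 rose and 1 fell on soy (7.47 to 7.51, 7.45 to 7.53, 7.41 to 7.44 and 7.48 to 7.56). Of 15 Sertoli cell markers 11 rose and 1 fell on casein and 13 rose on soy (9.36 to 9.38, 9.91 to 10.19, 9.25 to 9.31 and 9.83 to 10.24). Of 11 tested Leydig cell markers 1 rose and 5 fell on casein, and 3 rose and 6 fell on soy. Of 13 tested macrophage and leukocyte markers 8 fell on casein, while on soy 1 rose and 2 fell. Of all tested genes 43.9% were called on casein and 51.5% on soy. The part of these cell types in the cell cycle differences was not tested. When the arrays with the lowest spermatid levels were both left out, 24 of the 27 casein calls and 24 of the 31 soy calls were kept. Without casein-estradiol array 3 alone, 14 of the 27 casein calls were kept. The estradiol arrays that remained were still lower in spermatid level (12.29 to 12.54) than all arrays without estradiol (12.87 to 12.96). Leaving these arrays out is therefore no test of the part of the cell types.

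Between soy and casein without estradiol, 1 of 45 members rose and 2 fell on soy. That is 6.67% of the members, near the 7.04% of all tested genes that were called (4.63% higher, 2.41% lower). The median difference was −0.03, as over all genes. Mki67 rose by 0.35 ± 0.08 (adjusted p = 0.0174), Mcm4 fell by 0.41 ± 0.09 (adjusted p = 0.0176) and Ccna2 fell by 0.47 ± 0.11 (adjusted p = 0.0175). In each of the 3 genes the soy and casein arrays did not overlap, which adds little, since they were picked by being called. Without soy array 1 none of the 3 was called (adjusted p = 0.0674, 0.0774 and 0.0562, in that order). Mki67 was also lost without casein array 1 or soy array 2 (adjusted p = 0.0692 and 0.0566), Mcm4 without casein array 1 (adjusted p = 0.0669), and Ccna2 without casein array 2 or soy array 3 (adjusted p = 0.0630 and 0.0781). With the deposited values and with arrays centred on medians Mki67 was lost (adjusted p = 0.0612 and 0.0898) and the split became 1 higher and 4 lower. Centring moved the median of all probe sets in this comparison from −0.02 to −0.11. Comparisons of soy and of estradiol with casein alone share the casein arrays.

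Under estradiol no member differed between soy and casein by limma, and none of the 11777 tested genes did on the probe set read here (0.00%). At an unadjusted p under 0.05 there were 7 of 45 members and 1473 of all genes. The members with the smallest p were Aurkb, lower on soy with estradiol by 0.46 (adjusted p = 0.226), Aurka with −0.31 (adjusted p = 0.226) and Cdk2 with −0.41 (adjusted p = 0.230). In all 3 the soy-estradiol arrays lay below all casein-estradiol arrays, but they were picked by their p, so this adds no support. Without soy-estradiol array 3, 2 members were called lower, Plk1 and Aurkb (Aurkb −0.62, adjusted p = 0.0286).

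Whether estradiol acted differently on the diets was tested by the interaction, the estradiol difference on soy minus that on casein. Among members 1 was called, where 2.19% of all genes were (0.909% higher, 1.28% lower). It was Mcm4, with a larger rise on soy by 0.61 ± 0.13 (adjusted p = 0.0334). The call was lost without casein arrays 1 or 3, casein-estradiol arrays 1 or 2, or soy arrays 1 or 3 (adjusted p = 0.0581, 0.0692, 0.0883, 0.0706, 0.0884 and 0.0628), and with the replicate block (0.0547). For Ccna2 the same difference was 0.39 ± 0.15 (adjusted p = 0.170), for Aurkb −0.43 ± 0.18 (adjusted p = 0.198), for Tyms −0.42 ± 0.17 (adjusted p = 0.177) and for Plk1 −0.28 ± 0.17 (adjusted p = 0.368), and none of these passed the threshold.

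In 12 of the 47 measured genes more than 1 probe set carried the symbol, with more than 1 tested in 11, and in a few the probe sets gave different patterns. Besides Ccnb1 and Mad2l1 these included Cdkn1b and Nusap1. Calls also differed between probe sets of other members, among them Ccnd1 and Cdk2, as given above. The dimmer Cdkn1b probe set read 6.55, 6.47 and 6.44 in casein, 7.59, 7.66 and 7.76 in casein-estradiol, 7.64, 7.80 and 7.68 in soy, and 8.15, 7.99 and 7.89 in soy-estradiol. It was lowest on casein alone and rose with soy by 1.22 (adjusted p = 7.49e-06), while the brighter one differed by −0.01 between these groups. The dimmer Nusap1 probe set read 9.53, 9.27 and 9.18 in casein, 9.63, 9.22 and 9.71 in casein-estradiol, 9.75, 9.67 and 9.45 in soy, and 8.70, 8.41 and 8.98 in soy-estradiol. Only the arrays of soy with estradiol were apart from the other groups, with a fall of 0.93 on soy (adjusted p = 0.000707) and a difference of 0.19 on casein (adjusted p = 0.349).

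**Figure D4:**
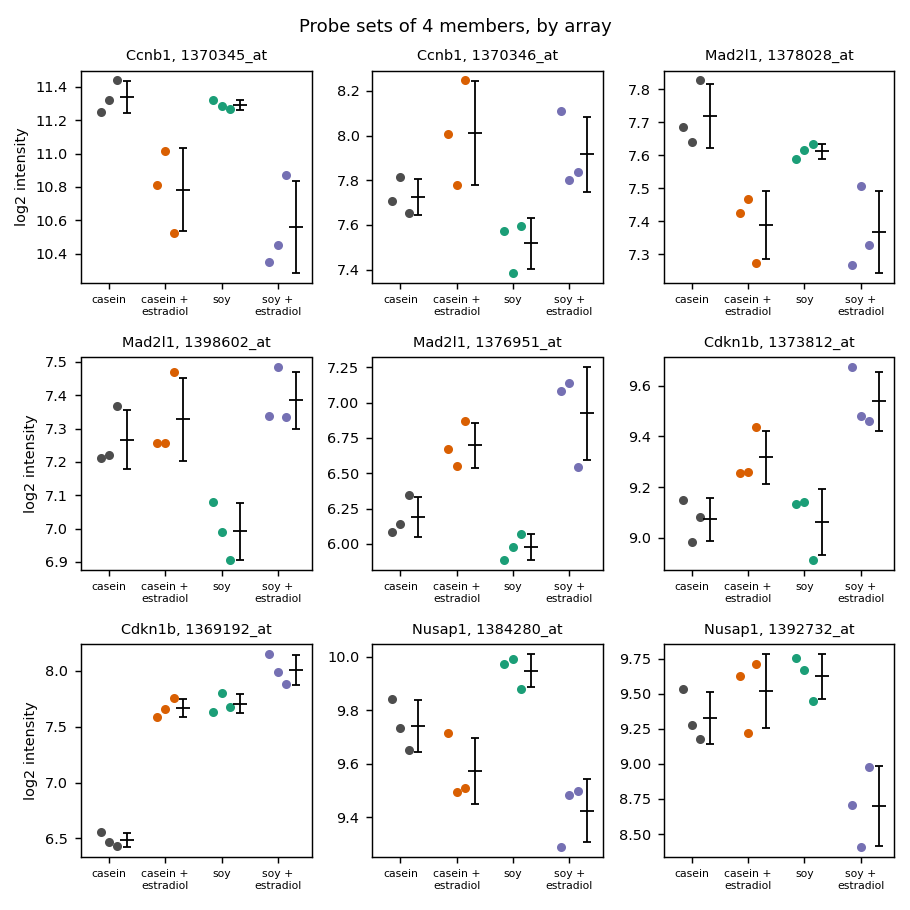
Log2 intensity on each tested probe set of Ccnb1, Mad2l1, Cdkn1b and Nusap1 in the 12 arrays (points), with group mean and SD (n = 3); each panel has its own y axis, which does not start at 0. The Ccnb1 and Mad2l1 panels show probe sets of 1 gene moving in opposite directions with estradiol, and the dimmer Cdkn1b probe set is low, at 6.44 to 6.55, in the casein arrays alone.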

How the data were processed

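Testis RNA was labelled with biotin and hybridised to 12 Affymetrix rat arrays, 3 for each of 4 groups. The authors deposited 1 log2 intensity per probe set and array; GCOS is named in the submitters' processing notes, and its version and steps are not given in the sources used here. That the scale is log2 was read from the values (2.80 to 14.64). Lower quartiles, medians and upper quartiles of the arrays differed by 0.164, 0.0691 and 0.183. Since some exceeded 0.15, arrays were quantile normalized. The 57 control probe sets and the 30% of probe sets with the lowest mean were left out. limma 3.58.1 in R 4.3.3 fitted the 4 groups together (eBayes with trend, 8 residual degrees of freedom), and the procedure was tested on simulated data. With 3 arrays a group, which limits the precision, the median standard error was 0.0923 for a difference between groups and 0.131 for the interaction. An exact two-sided test of 3 against 3 arrays has a smallest p of 0.1.

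The members, gene lists, motifs and alternatives were chosen with earlier results of these data known. Values in every array are given for the 8 largest rises and falls in each estradiol comparison and for members called in the other comparisons; where none was called, the 3 smallest p-values are given. Other pathway genes named are the 3 of smallest p in each direction. Probe sets beyond these, and the 2 promoters printed in each direction, were chosen after their values were seen. Same-numbered arrays of different groups did not deviate together consistently (correlations of deviations from −0.361 to 0.352), so replicate numbers were not treated as pairs. Alternatives covered the scaling, the filter, the trend, the probe set, the replicate block, the groups fitted and each array left out.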

Additional observations from a re-analysis of the deposited data

Results flagged for a closer look

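The estradiol difference on soy minus that on casein passed the adjusted threshold in limma for 3 probe sets of cell cycle genes. For Mcm4 it was 0.61, and estradiol raised the gene on both diets. That call was lost in 6 of 12 fits with 1 array left out. The dimmer Cdkn1b probe set gave −0.88, from a rise of 1.19 on casein and of 0.30 on soy, and the brighter probe set of that gene gave 0.23 and was not called (adjusted p = 0.317). For the dimmer Nusap1 probe set the difference was −1.12, and for the brighter one −0.35 (adjusted p = 0.126).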

How the results depend on the processing

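Of 852 values of named members under 22 alternatives, 786 kept their direction and their side of the threshold, 64 lost the call, 1 gained it and 1 reversed: Mad2l1 on casein was 0.51 (adjusted p = 0.0129) on its probe set of highest variance. The same probe set turned Mad2l1 on soy too (0.95), a value that is not among the 852. Most named members were picked by large differences, so a high share kept was partly fixed in advance. Over all called members, 12 of 27 calls on casein and 19 of 31 on soy held whichever array was left out. For soy without estradiol 0 of 3 calls held, and for the interaction 0 of 1. Leaving out 1 array at a time gave 14 to 31 called members for estradiol on casein (8 to 19 higher, 6 to 12 lower). The total was 17 without casein array 2, 15 without casein array 3 and 14 without casein-estradiol array 3. For estradiol on soy it gave 21 to 30 calls (11 to 17 higher, 10 to 14 lower), with 11 higher without soy array 3. The range was 0 to 4 for soy without estradiol (0 to 2 higher, 0 to 3 lower), 0 to 2 for soy under estradiol (all of them lower), and 0 to 2 for the interaction (0 to 1 higher, 0 to 1 lower).

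Centring arrays on medians gave 8 higher for estradiol on casein. For soy without estradiol it gave 5 calls, 4 of them lower, with a median of −0.16, and the deposited values gave 5, with 4 lower and a median of −0.13. For the interaction, centring gave 2 calls, both higher, with a median of 0.11. A 50% filter gave 1 lower for soy without estradiol and 0 calls for the interaction. Taking the probe set of highest variance gave 2 higher for soy without estradiol and 3 calls for the interaction, 2 of them lower. Fitting only the 2 groups compared gave 11 higher for estradiol on soy and 2 higher for soy without estradiol. Without casein-estradiol array 3 and soy-estradiol array 1 the interaction had 0 calls. Without casein-estradiol array 2, which had the most fat and muscle signal, and soy-estradiol array 1, soy under estradiol had 1 call, Cdc20, lower, and the interaction 0 higher and 1 lower. The cause of these changes was not tested.

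With the replicate block the calls were 26, 30, 3, 0 and 0, in the order of comparisons above. Deviations of same-numbered arrays correlated at −0.361 to 0.352, and 4 of 12 arrays correlated best with their own number. This cannot show whether same-numbered samples share more than a number.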
